A study of Sus scrofa with 12 samples.

Results

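The genes described here encode the proteins of the mitochondrial ribosome and of the machinery that imports proteins into mitochondria. They were chosen by name, as every gene whose symbol begins with MRPL, MRPS, TIMM or TOMM and that had a probe set carrying that single symbol in the platform annotation. That gave 76 of the 6765 symbols on the array, of which 36 were MRPL, 22 MRPS, 11 TIMM and 7 TOMM genes. They had 99 probe sets, and 17 of them had more than 1, and the brightest on average then represented the gene. A filter on low values left 75. MRPL24, a large-subunit protein, was the gene that did not pass, with a mean intensity of 22.7 ± 5.80 in fetal muscle, 32.4 ± 4.59 in 3-day, 27.1 ± 4.99 in 60-day and 28.7 ± 1.62 in 120-day muscle (SD, n = 3 arrays each).

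The mitochondrial ribosome translates the few messenger RNAs of mitochondrial DNA, which encode core subunits of the respiratory chain. Its own proteins are encoded in the nucleus, made in the cytosol and imported, with MRPL names mostly for the large subunit and MRPS names mostly for the small subunit. Import begins at the outer membrane translocase (TOMM), passes small chaperones of the intermembrane space and goes on through inner membrane translocases (TIMM), of which one takes proteins with a presequence and another takes carrier proteins. Skeletal muscle holds many mitochondria, and their number and content change as fibres mature.

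Transcripts were measured in the longissimus dorsi, the long back muscle, of Meishan pigs, a Chinese breed raised under standard feeding, on 1-colour Affymetrix porcine arrays. The groups were fetuses at 65 days post coitus (dpc) and pigs at 3, 60 and 120 days after birth, with 3 arrays each and no treatment or mutation in any of them. Fetuses of one sow were treated as 1 individual, so a fetal array may hold more than 1 animal. The study asked how expression changes as this muscle develops. Values are the deposited intensities on a linear scale, and each log2 change is a difference of log2(intensity + 21), which understates the change of dim probe sets. Levels of different probe sets are not compared with each other.

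Array medians ran from 49.1 to 52.6. The tissue label fitted its markers, since the summed intensity of the 8 matched of 14 muscle fibre markers was 18284 to 26064 on fetal arrays, 37659 to 38446 on 3-day arrays, 37291 to 38444 on 60-day arrays and 39606 to 41861 on 120-day arrays. The ratio of 3-prime to 5-prime actin probe sets, a measure of RNA and labelling quality, averaged 2.45 on fetal, 3.61 on 3-day, 5.10 on 60-day and 5.08 on 120-day arrays. In a tissue sample, fewer cells of a type and less RNA per cell cannot be told apart.

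On 2 arrays the genes stood apart from the others of the same stage. The replicates are labelled as biological. Fetus replicate 2 held the lowest value of its stage for 61 of the 75 genes, and 60 days replicate 1 for 58, while over all 16166 probe sets tested these shares were 35.4% and 32.5%. The mean log2 level over the 75 genes was 8.09, 7.44 and 7.85 on fetus replicates 1 to 3, and 7.98, 8.61 and 8.53 on the 60-day replicates 1 to 3. At 3 days it was 8.84 ± 0.0261 and at 120 days 8.51 ± 0.0556 (SD, n = 3). Subunits of oxidative phosphorylation were also lowest of their stage on these arrays, 50 of 59 on each, and cytoplasmic ribosomal proteins were lowest for 39 and 58 of 60. Fetus replicate 2 had the highest fetal sums of fibre, matrix, endothelial, smooth muscle and proliferation markers, but not of immune, adipocyte, erythroid or nerve markers. Its actin ratio, 2.39, lay between those of the other fetal arrays, while 60 days replicate 1 had the highest of the 12 arrays, 6.18. The part of these differences in the low values was not tested. Set against the mean of the other 2 arrays of their stage, 63 of the 75 genes were lower on both of these arrays and 6 were higher on both, namely MRPL45, MRPS27, MRPS35, MRPS36, TOMM40L and TOMM70, which were singled out after their values were seen. Counts of called genes are therefore also given without these arrays.

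**Figure D1:**
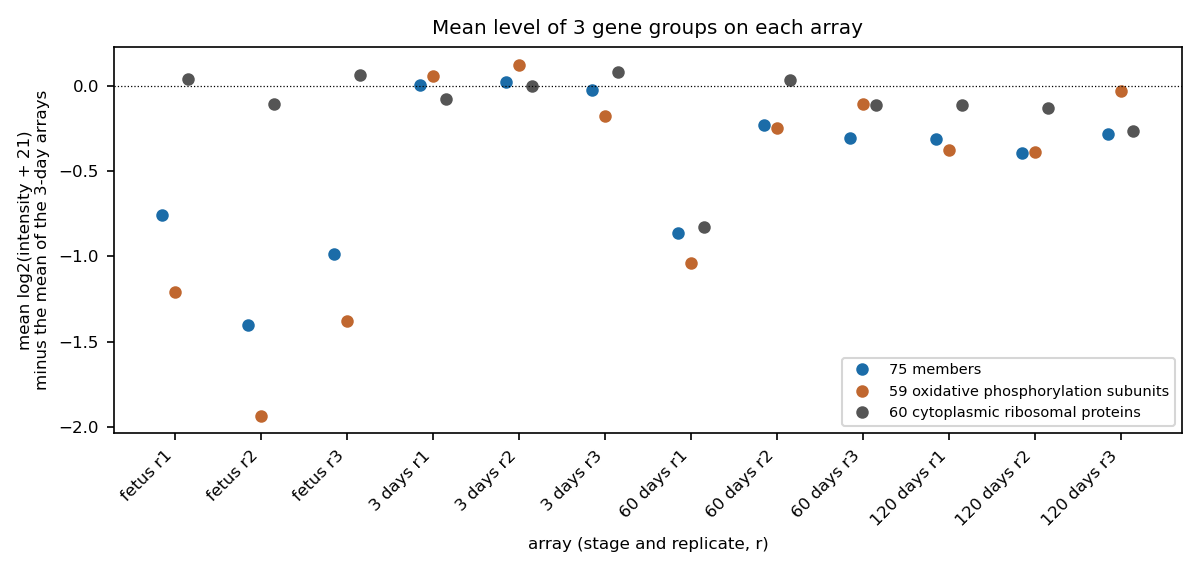
Mean log2(intensity + 21) of 3 gene groups on each of the 12 arrays, as a difference from the mean of the 3-day arrays (points are arrays). The 75 mitoribosomal and import genes and the oxidative phosphorylation subunits have their lowest stage mean in the fetus. For the 75 genes, however, 60 days replicate 1 lies below fetus replicate 1. Cytoplasmic ribosomal proteins lie near 0 except on 60 days replicate 1, where all 3 groups are low.

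Across the 4 stages most of these genes changed, and the commonest course was lowest in the fetus and highest at 3 days. By limma's moderated F test 49 of 75 differed (65.3%), against 46.9% of all probe sets tested. They were 24 of 35 MRPL, 17 of 22 MRPS, 7 of 11 TIMM and 1 of 7 TOMM genes. The count was 38 without fetus replicate 2, 56 without 60 days replicate 1 and 50 without both, with 2, 4 and 3 TOMM genes. The lowest stage mean was in the fetus for 65 of 75 (86.7%, against 40.4% of all probe sets). The highest was at 3 days for 58 (77.3%, against 21.2% of all), at 120 days for 14, before birth for 2 and at 60 days for 1. Without both low arrays the fetus was lowest for 64 and 3 days highest for 55. The 6 smallest F-test p values belonged to MRPL58 (adjusted p = 4.27e-05), MRPL38, TIMM44, MRPL37, MRPS27 and MRPL50.

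**Figure D2:**
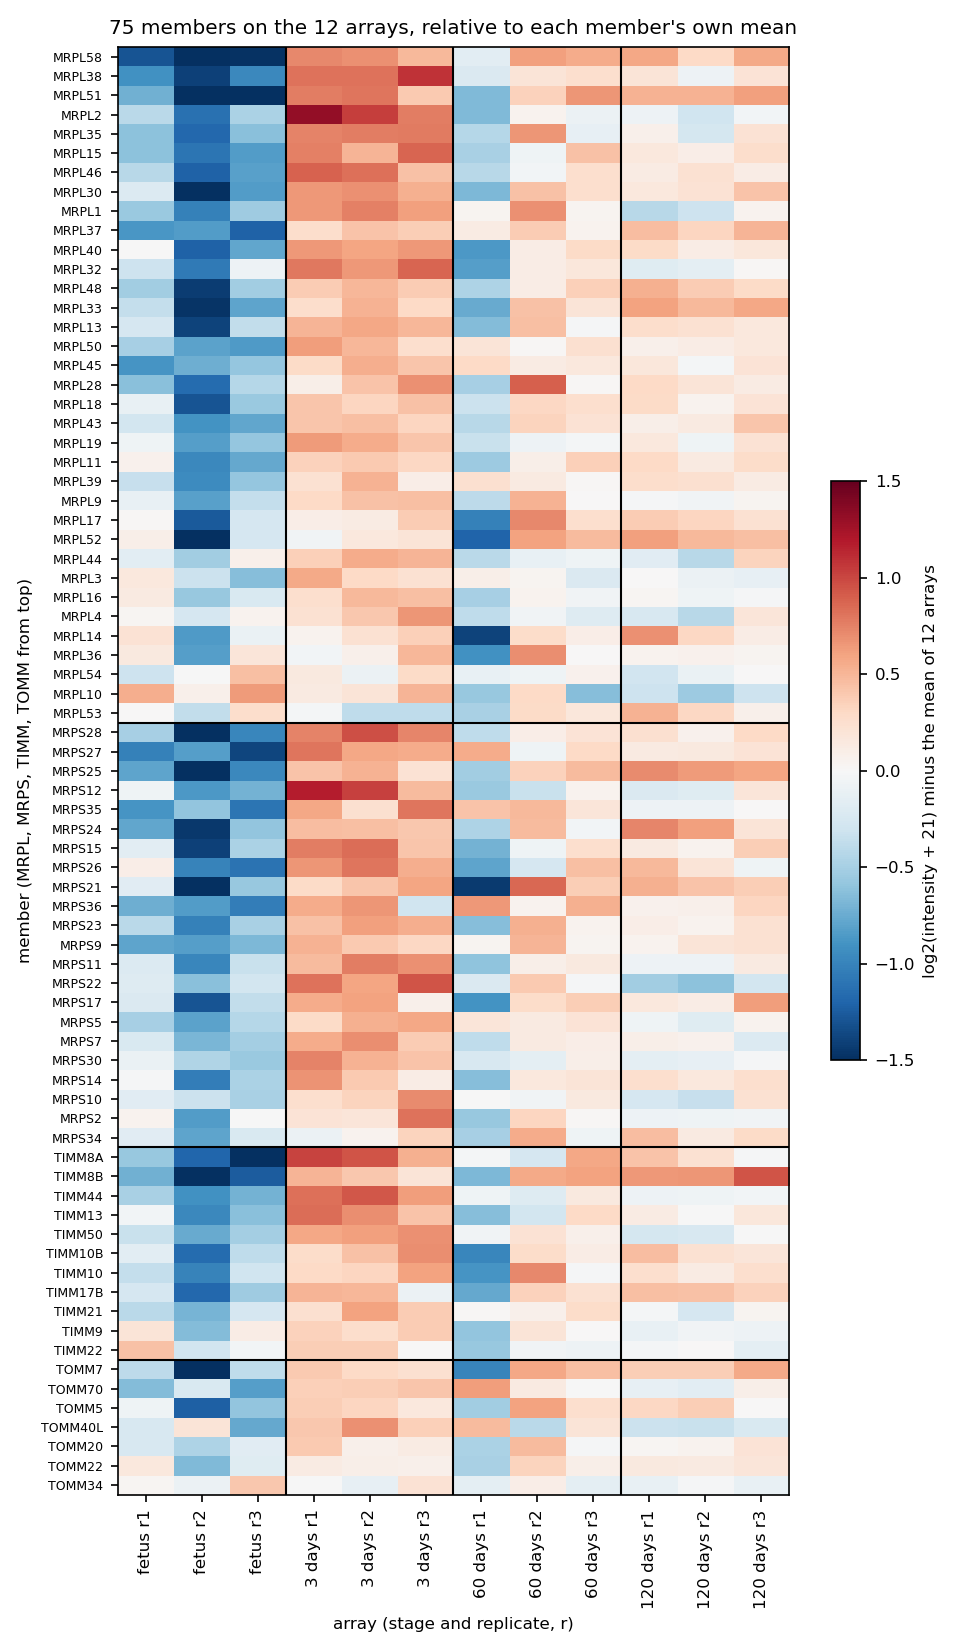
Heat map of the 75 genes (rows, grouped as MRPL, MRPS, TIMM and TOMM from the top) on the 12 arrays (columns, in stage order), where colour is log2(intensity + 21) minus the gene's mean over the 12 arrays. The fetal mean is the lowest for 65 genes and the 3-day mean the highest for 58, and 60 days replicate 1 is paler or blue beside its stage.

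At 3 days after birth, 59 of 75 genes had risen above the fetus and 0 had fallen. Over all probe sets tested 43% passed in this comparison, 20.3% as a rise and 22.6% as a fall. The median log2 change of the genes was 1.08, with a range of -0.23 to 2.08, against -0.00045 over all probe sets. In 66 of the genes all 3 arrays at 3 days lay above all 3 fetal arrays (26.7% of all probe sets did so), in 9 the stages overlapped, and 44 of the 59 rose by at least 1 on the log2 scale. Over all probe sets tested 5.98% passed with a rise of that size and 9.76% with a fall of that size. Without fetus replicate 2 the count was 46 higher and 0 lower and the median 0.92 (21 MRPL, 17 MRPS, 6 TIMM and 2 TOMM genes), and without both low arrays the counts were 57 higher and 0 lower.

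Markers of other cell types were also called over the same interval, in which 20.3% of all probe sets tested rose and 22.6% fell. All 3 matched markers of proliferating cells were lower at 3 days, with a sum of 78.8 to 271 at 3 days and 791 to 1254 in the fetus. Of 5 matched fibroblast and matrix markers 3 were lower (sum 2774 to 4436 at 3 days, 9709 to 15655 in the fetus), and of 4 adipocyte markers 3 were higher (sum 1210 to 1683 at 3 days, 328 to 621 in the fetus). Among the 5 endothelial markers tested 1 was lower and 0 higher, and the share that was lower is near that over all probe sets. Among the erythroid 1 was lower and 0 higher, and among smooth muscle and pericyte 1 higher and 1 lower. Among nerve and Schwann cells 1 was higher and 2 lower, and among the 4 immune markers tested 0 passed. These small counts were not tested against the shares over all probe sets. No matched marker was listed at 0. The part of these cell types, of the fibre markers (5 of 8 higher) and of the actin ratio in the changes of these genes was not tested.

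In the large subunit 27 of 35 genes rose, with a median log2 change of 1.14. MRPL58, a peptidyl-tRNA hydrolase built into the subunit that releases stalled chains, had 320.4, 310.3 and 269 at 3 days, against 63.5, 47.6 and 53.3 in the fetus, a log2 change of 2.08 ± 0.21, adjusted p = 2.80e-05. It was the largest change among the 75 genes, and its lowest array after birth, 164 on 60 days replicate 1, was above every fetal array. MRPL38, a subunit that bacteria lack, had 413, 414 and 503 at 3 days and 110.2, 72.4 and 106 in the fetus, a change of 2.0 ± 0.20, adjusted p = 2.40e-05. For MRPL51, also without a bacterial counterpart, the values were 868, 895 and 666 at 3 days and 297, 133 and 165 in the fetus (1.98 ± 0.34, adjusted p = 7.50e-04). None of these 3 overlapped between the stages.

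MRPL2, counterpart of the bacterial protein that lies by the peptidyl transferase centre, reached 764, 622 and 512 at 3 days, against 217, 124 and 204 in the fetus (1.7 ± 0.25, adjusted p = 3.24e-04). The same change was 1.57 for MRPL35 and 1.56 for MRPL15, which completes the 6 large-subunit genes with the largest rises. MRPL37, MRPL48, MRPL50 and MRPL33 rose by 1.32, 1.24, 1.18 and 1.24. MRPL50 was a dim but tight example, with 182, 165 and 135 at 3 days and 71.6, 54.5 and 51.8 in the fetus.

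Of the 8 large-subunit genes that did not pass, MRPL10, MRPL53 and MRPL54 had the smallest changes. MRPL10, which anchors the flexible stalk that binds translation factors, had 245, 256 and 324 at 3 days and 333, 234 and 359 in the fetus (-0.14 ± 0.26, adjusted p = 0.67). MRPL53 had 796, 618 and 620.4 at 3 days and 818, 625 and 975 in the fetus (-0.23 ± 0.25, adjusted p = 0.482), and MRPL54 had a change of 0.07. All 3 overlapped between the stages. The others were MRPL4 (0.49), MRPL14 (0.46), MRPL17 (0.70), MRPL36 (0.35) and MRPL52 (0.67). On the scale of the hybridization controls, which lowers every change by 0.28 at this step, MRPL10, MRPL53 and MRPL54 lay at -0.43, -0.51 and -0.21 and did not pass either. After quantile normalization MRPL10 lay at 0.03, so the sign of its change depends on the scaling.

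Of the MRPS genes, which include MRPS30 and MRPS36 described below, 19 of 22 rose, the median change was 1.17, and in all 22 the 3-day arrays lay above the fetal arrays. MRPS28 had 413, 487 and 409 at 3 days, against 163, 70.4 and 110.4 in the fetus (1.81 ± 0.25, adjusted p = 2.02e-04). MRPS27, a pentatricopeptide repeat protein that binds RNA, had 676, 575 and 565 at 3 days and 176, 204 and 133 in the fetus (1.72 ± 0.21, adjusted p = 9.12e-05), and it was one of the genes that fetus replicate 2 did not lower. The protein of the decoding centre, MRPS12, had 379, 339.9 and 225 at 3 days and 147, 76.4 and 87.5 in the fetus (1.44 ± 0.26, adjusted p = 9.69e-04). Replicate 3 was the lowest of the 3-day arrays for MRPS12, and still above every fetal array.

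MRPS25, MRPS35 and MRPS24 rose by 1.52, 1.4 and 1.38. MRPS22, a subunit found in mitochondria and not in bacteria, had 503, 429 and 554 at 3 days and 241, 172 and 226 in the fetus (1.15 ± 0.21, adjusted p = 0.00119). MRPS30, which despite its name sits in the large subunit, rose by 0.93. MRPS36, since assigned to the 2-oxoglutarate dehydrogenase complex of the tricarboxylic acid cycle, had 598, 646 and 320.5 at 3 days and 232, 214 and 184 in the fetus (1.18 ± 0.26, adjusted p = 0.00397). The 3 genes that did not pass were MRPS2 (0.67), MRPS21 (1.24) and MRPS34 (0.50). MRPS21 had the widest error of the 75 genes, 0.50, with 455, 147 and 342 on the fetal arrays, and without both low arrays its change was 0.80 (adjusted p = 0.0139).

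Among the inner membrane and intermembrane space genes 9 of 11 rose, with a median change of 1.03. The largest rises were in TIMM8A and TIMM8B, small chaperones that escort hydrophobic proteins across the intermembrane space. TIMM8A had 692, 657 and 491 at 3 days and 216, 134 and 90.2 in the fetus (1.97 ± 0.30, adjusted p = 3.43e-04). TIMM8B had 2047, 1911 and 1643 at 3 days and 866, 367 and 591 in the fetus (1.66 ± 0.35, adjusted p = 0.00284). TIMM13, the partner of TIMM8A, rose by 1.2, while TIMM10, TIMM10B and TIMM9, chaperones of the carrier route, had changes of 0.96, 1.03 and 0.45, of which TIMM9 did not pass.

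TIMM44, which tethers the import motor to the presequence channel, had 234, 253 and 200.3 at 3 days and 81.6, 55.3 and 67 in the fetus (1.5 ± 0.16, adjusted p = 3.48e-05). TIMM50, the receptor of that channel, had 339, 348 and 367 at 3 days and 171, 122 and 149 in the fetus (1.16 ± 0.17, adjusted p = 2.89e-04). In both genes every 3-day array was above every fetal array. TIMM17B, a channel subunit, and TIMM21, which links the channel to respiratory complexes, rose by 0.96 and 0.86. TIMM22, the channel of the carrier route, had 117, 116 and 86 at 3 days and 123, 65.9 and 82.7 in the fetus (0.21 ± 0.20, adjusted p = 0.415), with overlapping arrays and a change of -0.07 on the scale of the hybridization controls.

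At the outer membrane 4 of 7 TOMM genes rose, and the median change was 0.76. On the scale of the hybridization controls all 4 of these calls were lost. TOMM7, a small subunit that modulates assembly of the complex, had 1639, 1530.1 and 1474 at 3 days and 938, 422 and 946 in the fetus (1.08 ± 0.39, adjusted p = 0.0415), and TOMM5, another small subunit, rose by 0.90. TOMM70, the receptor for carrier proteins, had 417, 420.5 and 434 at 3 days and 196, 270.2 and 172 in the fetus (0.95 ± 0.21, adjusted p = 0.00412). TOMM40L, a paralogue of the channel protein, rose by 0.76. The presequence receptors TOMM20 and TOMM22 did not pass, at 0.49 ± 0.23, adjusted p = 0.103 and 0.33 ± 0.25, adjusted p = 0.306. TOMM34, a cytosolic co-chaperone of import, had 69.8, 62.2 and 84.5 at 3 days and 72, 64.2 and 99.2 in the fetus, a change of -0.09. Differences in change between these groups of genes were not tested.

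**Figure D3:**
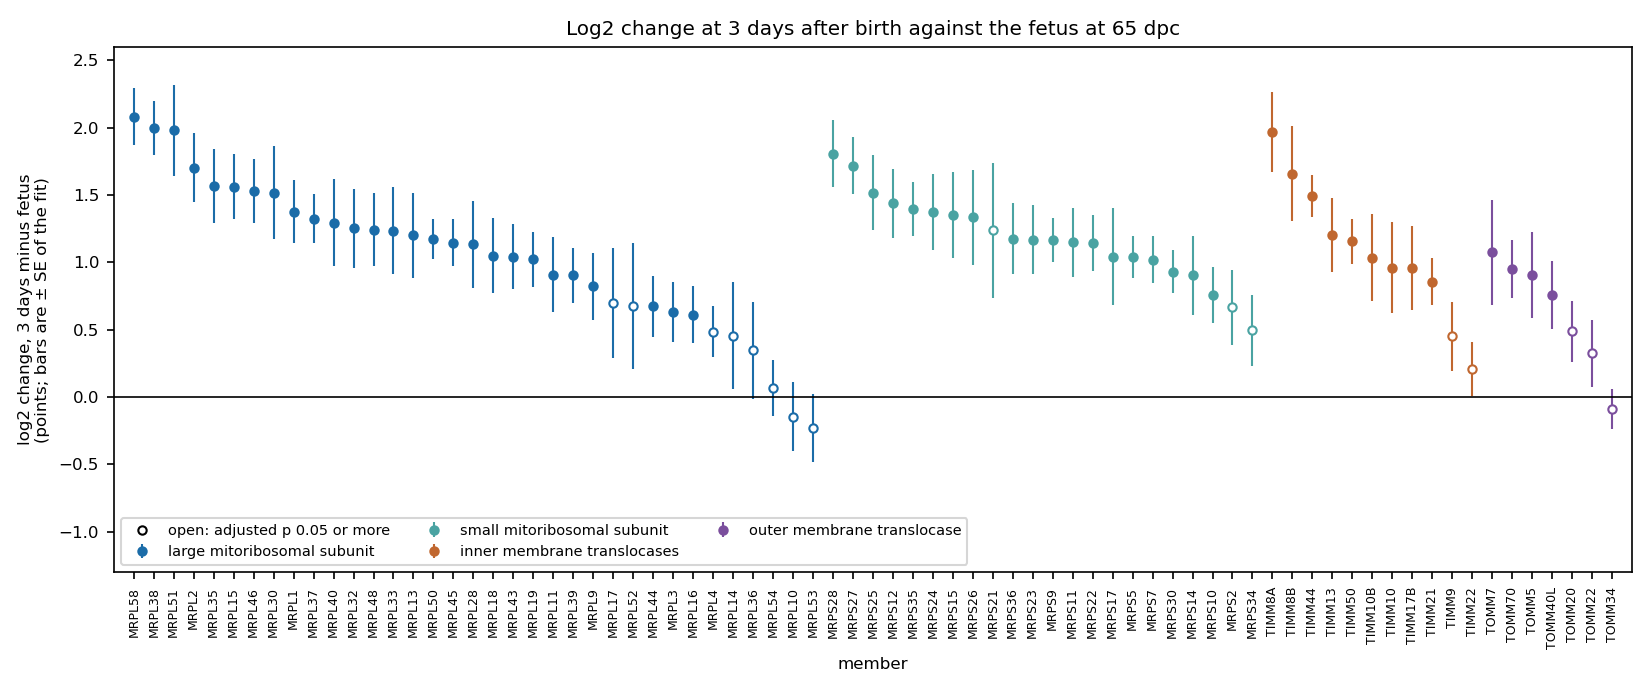
Log2 change of each of the 75 genes at 3 days against the fetus (points, with bars of ± SE of the fit), grouped by part of the machinery and ordered by size; filled points passed at an adjusted p under 0.05. The 59 filled points are all above 0, and 3 open points lie below it.

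Leaving out each array in turn kept 45 of these 59 calls in all 12 fits. Without fetus replicate 2 the following did not pass: TOMM7 (0.70, adjusted p = 0.169), TOMM5 (0.61, 0.148), MRPS17 (0.71, 0.145), TIMM10 (0.74, 0.135), MRPL16 (0.44, 0.133), TIMM17B (0.70, 0.112), MRPL44 (0.52, 0.111), MRPS14 (0.64, 0.105), TIMM10B (0.74, 0.0976), MRPL11 (0.70, 0.0832), MRPL3 (0.61, 0.081), MRPL9 (0.63, 0.0741) and MRPL28 (0.93, 0.0585). Of these only MRPL28 kept its call in every other fit. The others also failed without another array, and TOMM7 and MRPL16 held in 5 of the 12 fits and TOMM5 and MRPL3 in 6. TOMM40L passed without fetus replicate 2. It failed without fetus replicate 1 or 3 or 3 days replicate 1 or 2, with an adjusted p of up to 0.108. The 19 further probe sets of these genes that passed the filter gave 17 rises and 0 falls at this step, with a median of 0.88; the others were the second sets of MRPL3 and MRPL33.

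After 3 days the median of the genes was lower, although few passed on their own. In the comparison of 60 days with 3 days 3 of 75 fell and 0 rose, with a median log2 change of -0.45 against -0.00019 over all probe sets, of which 1.53% passed, 0.742% as a fall and 0.786% as a rise. In 34 genes all 60-day arrays lay below all 3-day arrays (10% of all probe sets). The median was also below 0 for oxidative phosphorylation subunits (-0.41) and cytoplasmic ribosomal proteins (-0.29). Without 60 days replicate 1 these 2 medians were -0.17 and -0.02. MRPL2 had 177, 303 and 274 at 60 days, against 764, 622 and 512 at 3 days, a change of -1.28 ± 0.25, adjusted p = 0.0302. MRPS12 had 99, 119.6 and 162 at 60 days and 379, 339.9 and 225 at 3 days (-1.17 ± 0.26, adjusted p = 0.0429), and TIMM44 had 116, 104 and 137 at 60 days and 234, 253 and 200.3 at 3 days (-0.84 ± 0.16, adjusted p = 0.0248). In each of the 3 genes the stages did not overlap. Without 60 days replicate 1 the count was 0 and the median -0.24, and the changes were -1.06 for MRPL2 (adjusted p = 0.101), -1.04 for MRPS12 (0.142) and -0.82 for TIMM44 (0.0726). The count was also 0 without 3 days replicate 1 or replicate 2, and 1 without 60 days replicate 2 or without 120 days replicate 1 or replicate 2. With its dimmest tested probe set the call of TIMM44 was lost. The 19 further probe sets of the 75 genes gave 4 falls and 0 rises at this step.

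None of the genes was called between 60 and 120 days, where limma called 0 of all probe sets (0%) and 1021 of them had an unadjusted p under 0.05, among them 1 of these genes. Their median change at 120 days against 60 days was 0.12 with all arrays and -0.057 without 60 days replicate 1.

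Set against 3 days, the muscle at 120 days had 6 of 75 genes lower and 0 higher, with a median log2 change of -0.36. Over all probe sets 4.42% passed, 2.12% as lower and 2.29% as higher. In 46 genes all 120-day arrays lay below all 3-day arrays (15.7% of all probe sets), and in 5 all lay above (16% of all probe sets). MRPS22 had 187, 174 and 226 at 120 days, against 503, 429 and 554 at 3 days (-1.25 ± 0.21, adjusted p = 0.00743). Its level at 120 days overlapped that in the fetus, 241, 172 and 226, and it was the call that held when any 1 array was left out. MRPL2 had 277, 235 and 283 at 120 days and 764, 622 and 512 at 3 days (-1.18 ± 0.25, adjusted p = 0.0234). TIMM44 had 115, 116 and 119 at 120 days and 234, 253 and 200.3 at 3 days (-0.86 ± 0.16, adjusted p = 0.0111). For TIMM44 the 120-day arrays lay within the range of the 60-day arrays, above every fetal and below every 3-day value.

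TIMM50 had 180.3, 183 and 219 at 120 days and 339, 348 and 367 at 3 days (-0.80 ± 0.17, adjusted p = 0.0224). MRPL38 and MRPS30 completed the 6, at -0.80 ± 0.20, adjusted p = 0.0442 and -0.66 ± 0.16, adjusted p = 0.0397. The second, dimmer probe set of MRPL38 gave 0.05 for the same comparison, so its probe sets disagreed. Without both low arrays 12 genes were lower, the 6 named and MRPL1, MRPL32, MRPS7, MRPS11, MRPS12 and TOMM40L. Leaving out 1 array gave 1 call without 120 days replicate 1 or replicate 2, 2 without 3 days replicate 1 or replicate 2, and 3 without 120 days replicate 3. The adjusted p of MRPS22 was at most 0.0458.

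**Figure D4:**
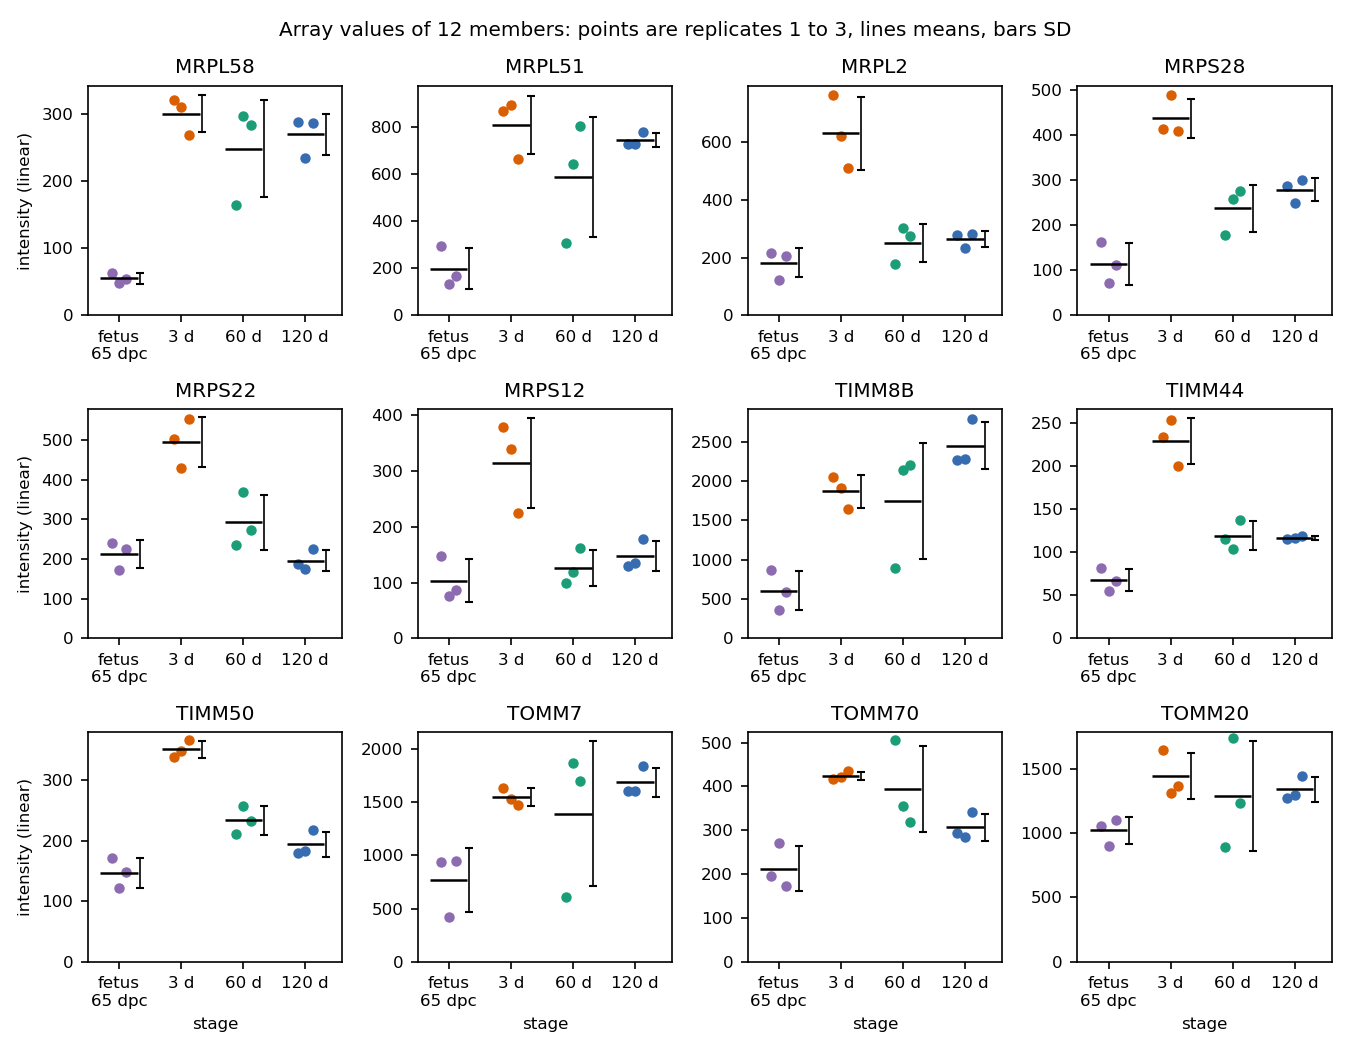
Intensity (linear axis from 0) of 12 genes at each stage; points are replicates 1 to 3, horizontal lines means and bars SD (n = 3). MRPL58, MRPL51, TIMM8B and TOMM7 stay high after 3 days, whereas MRPL2, MRPS22, MRPS12, TIMM44 and TIMM50 are lower again at 120 days, and for MRPL51, TIMM8B and TOMM7 the lowest 60-day point is replicate 1.

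Compared directly with the fetus, the muscle at 120 days had 40 of 75 genes higher and 1 lower, with a median log2 change of 0.80 against 0.0036 over all probe sets, of which 48.4% passed, 23.4% as higher and 25% as lower. By group, 20 of 35 MRPL, 13 of 22 MRPS, 5 of 11 TIMM and 2 of 7 TOMM genes were higher. In 53 genes all 120-day arrays lay above all fetal arrays (30% of all probe sets). Of the 59 genes that rose by 3 days, 39 were also higher than the fetus at 120 days and 20 were not. These 2 comparisons share the fetal arrays, and the same split over all probe sets is not given here. Without fetus replicate 2 the count was 23 higher (12 MRPL, 7 MRPS, 3 TIMM and 1 TOMM) and 1 lower and the median 0.53, and without both low arrays it was 33 higher and 1 lower. Without 120 days replicate 1 or replicate 3, 27 and 25 genes passed in either direction. Leaving out each array in turn kept 22 of the 40 higher calls in all 12 fits.

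TIMM8B had the largest difference, with 2268, 2278 and 2789 at 120 days and 866, 367 and 591 in the fetus (2.04 ± 0.35, adjusted p = 5.82e-04). MRPL58 had 287, 234 and 286 at 120 days and 63.5, 47.6 and 53.3 in the fetus (1.94 ± 0.21, adjusted p = 3.05e-05), and MRPL51 729, 731 and 781 at 120 days and 297, 133 and 165 in the fetus (1.88 ± 0.34, adjusted p = 7.94e-04). MRPS25 was the MRPS gene with the largest difference, at 483, 458 and 446 in the 120-day arrays and 157, 78.9 and 137 in the fetal arrays (1.78 ± 0.28, adjusted p = 3.13e-04). In these 4 genes every 120-day array lay above every fetal array. MRPL33, MRPL37, MRPS24 and TIMM8A differed by 1.43, 1.4, 1.45 and 1.36, and TOMM7 and TOMM5 by 1.2 and 0.85. With the dimmest tested probe set of each gene, the calls of MRPL33, MRPS9 and TIMM44 in this comparison were lost. The 19 further probe sets gave 11 higher and 0 lower.

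The gene that went the other way was MRPL10, with 174, 145 and 175 at 120 days and 333, 234 and 359 in the fetus (-0.81 ± 0.26, adjusted p = 0.0201). Every array at 120 days was below every fetal array, but the adjusted p reached 0.0724 when 1 array was left out, with a change of -0.73 without 120 days replicate 2, -0.75 without fetus replicate 1 and -0.70 without fetus replicate 3. After quantile normalization the change of MRPL10 was -0.66 and did not pass. MRPS34, whose value on the 3-day arrays had not passed, was higher at 120 days (246, 193 and 217) than in the fetus (151, 91.4 and 145), with a change of 0.69 ± 0.26, adjusted p = 0.0447. Without fetus replicate 2 its change was 0.49 (adjusted p = 0.169). The call of MRPS34 held in 5 of the 12 fits that each left out 1 array.

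These directions depend on the deposited scale. Centring each array on its 27 hybridization control probe sets, which are added to the hybridization mix, shifted the median of all probe sets by -0.28 at 3 days against the fetus and by -0.43 at 120 days against the fetus, and calls that were higher made up 19% and 14.2% of all calls. The genes then had 44 higher and 0 lower at 3 days, and 13 higher and 5 lower at 120 days against the fetus, the 5 being MRPL4, MRPL10, MRPL54, TIMM22 and TOMM34. Over all probe sets tested, 7.75% were then higher and 33% lower at 3 days. At 120 days against the fetus 7.37% were higher and 44.4% lower. This centring moves every probe set by the same amount, so it leaves differences between genes as they were.

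The genes that work beside the mitoribosome gave counts in the same direction at 3 days. Over all probe sets tested 20.3% rose and 22.6% fell in this comparison. Of 4 mitoribosomal proteins with other names 2 rose, GADD45GIP1 of the large subunit (1.34) and DAP3 of the small subunit (0.58). Of 9 translation factors 5 rose, among them TSFM and TUFM, the exchange factor and the elongation factor that delivers aminoacyl-tRNA (1.79 and 1.23), and GFM1, which moves the ribosome along (1.33). Of 7 enzymes that charge mitochondrial tRNA 5 rose, with QRSL1 at 1.55 and FARS2 at 1.1, and of 10 assembly and rRNA factors 4 rose, with MTERF3 at 1.21 and MALSU1 at 1.03. None of these lists had a fall at this step, and without both low arrays the 4 counts were 1, 5, 4 and 5.

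Of 16 import motor, sorting, processing and chaperone genes 12 rose, and 12 without both low arrays. DNAJC19, a J-protein of the motor, had 719.7, 839.6 and 526 at 3 days and 258, 139.7 and 152 in the fetus (1.83 ± 0.31, adjusted p = 7.20e-04), and HSPA9, the matrix Hsp70 that pulls proteins in, had 2526, 2381 and 3539 at 3 days and 937, 1122 and 761 in the fetus (1.56 ± 0.20, adjusted p = 1.32e-04). ROMO1, HSPE1 and HSPD1 rose by 1.48, 1.02 and 0.88. Of 7 mitochondrial transcription and biogenesis factors 1 rose, TEFM, an elongation factor of mitochondrial transcription (1.24), and 1 fell, YY1 (-0.62). Thus 28.6% of these factors passed in either direction, below the 43% of all probe sets tested. TFAM, which packages and transcribes mitochondrial DNA, had 272, 306 and 305 at 3 days and 257, 358 and 198 in the fetus (0.15 ± 0.21, adjusted p = 0.598). PPARGC1A, a coactivator of mitochondrial genes, had 146, 260.2 and 86.6 at 3 days and 63.2, 85.5 and 240.3 in the fetus (0.37 ± 0.61, adjusted p = 0.647). The stages overlapped in both genes.

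TUFM and MIPEP, a peptidase that trims imported proteins, were also the 2 genes of these lists that were lower at 60 days than at 3 days. TUFM had 394, 381 and 387 at 60 days and 794, 984 and 867 at 3 days (-1.14 ± 0.17, adjusted p = 0.00778), and MIPEP had 63.8, 69.2 and 69.8 at 60 days and 147, 191 and 172 at 3 days (-1.1 ± 0.12, adjusted p = 0.00223). The 3 arrays at 60 days lay close together in both genes, and both calls held without both low arrays. At 120 days against 3 days, TUFM (-1.36), HSPD1 (-1.18), HSPA9 (-1.13), MIPEP (-0.97), MRM3 (-0.89), FARS2 (-0.87), WARS2 (-0.83), TEFM (-0.63) and AGK (-0.47) were lower and none was higher, while without both low arrays 1 biogenesis factor was higher. The calls of TUFM, MIPEP and FARS2 held when any 1 array was left out. The other 6 did not, and WARS2 was lost in 8, AGK and TEFM in 7, MRM3 in 6, HSPD1 in 3 and HSPA9 in 1 of the 12 fits. At 120 days against the fetus, 2 of 4 mitoribosomal proteins with other names, 3 of 9 translation factors and 2 of 7 tRNA-charging enzymes were higher. So were 3 of 10 assembly and rRNA factors, 3 of 16 import genes and 1 of 7 biogenesis factors. Over all probe sets tested 23.4% were higher and 25% lower in this comparison. WARS2 and MRM2 were the genes of these lists that were lower (-0.59 and -0.68).

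As points of comparison, 54 of 59 oxidative phosphorylation subunits rose at 3 days (median 1.57), of which most are imported through this machinery, and 1 of 60 cytoplasmic ribosomal proteins rose and 2 fell (median 0.0079). Without both low arrays these counts were 57 higher and 1 lower, and 2 higher and 1 lower. At 120 days against the fetus these counts were 47 higher and 0 lower (median 1.21), and 1 higher and 4 lower (median -0.18), or 51 higher and 1 lower, and 2 higher and 19 lower, without both low arrays. Without fetus replicate 2 alone they were 39 higher and 1 lower, and 0 higher and 1 lower. Among the MRPL and MRPS genes, 24 of 31 sorted as having a bacterial counterpart rose at 3 days (median 1.04) and 22 of 26 sorted as without one (median 1.21), MRPS36 and MRPL58 among the 26. At 120 days against the fetus, 14 with counterparts were higher and 1 lower (median 0.59), and 19 of those without were higher and 0 lower (median 0.87). Without both low arrays the last 2 counts were 8 higher and 1 lower, and 18 higher and 0 lower, and without fetus replicate 2 alone 3 higher and 1 lower, and 16 higher and 0 lower. The sorting into these groups was made for this work by the number in the symbol alone. Genes up to MRPL36 and up to MRPS21 were counted as having a counterpart, a cut taken from general knowledge of the ribosome. MRPL58 and MRPS24 were thus placed in the group without one only by their numbers. No placement was checked gene by gene, so some genes may stand in the wrong group. Whether these groups differ was not tested.

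**Figure D5:**
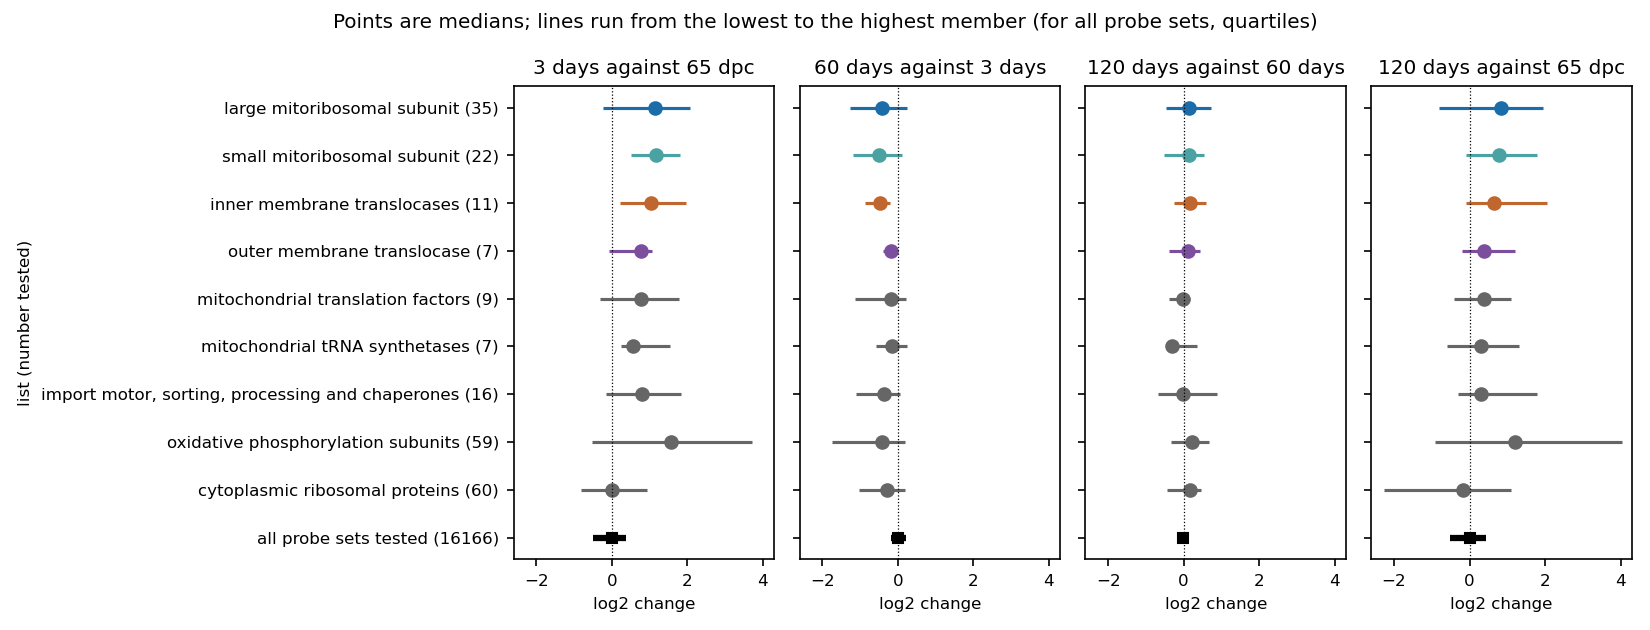
Log2 change in 4 comparisons for the 4 groups of genes, 5 other lists and all probe sets tested (rows, number tested in brackets); points are medians and lines run from the lowest to the highest gene, or between the quartiles for all probe sets. At 3 days against 65 dpc the medians of the 4 groups lie between 0.76 and 1.17 and that of cytoplasmic ribosomal proteins near 0, and in the next comparison the 4 medians lie below 0, although that of the TOMM genes is 0.029 without 60 days replicate 1.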

How the data were processed

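The deposited table holds 1 intensity per probe set and array on a linear scale. Per the submitters' processing notes it was made with GCOS 1.4, with the summary method and scaling not given in the sources used here, so directions hold on the deposited scale. Of 24123 probe sets, 124 controls were set aside, and the 16166 (67.4% of the rest) that were above the 40th percentile of their array on at least 3 arrays were tested. The log2(intensity + 21), with the rounded 25th percentile of all values as pseudocount, was fitted with limma 3.58.1 (R 4.3.3), 1 mean per stage over all 12 arrays and a variance trend, with 8 residual and 4.26 prior degrees of freedom. Adjusted p values are limma's, two-sided, after Benjamini-Hochberg adjustment over all probe sets tested, and a gene passed under 0.05. The number of arrays, 3 per stage, limits the precision.

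The fit was tested on simulated data. Symbols came from the platform annotation, in which 10069 probe sets had 1 symbol, 198 several and 13732 were not listed, and 75 of the 76 genes were found in RefSeq by Entrez ID. The members and lists were chosen with earlier results of these data known. Named genes were, per comparison and group, up to 6 with the largest called rise and 6 with the largest called fall, those called against their group, the 6 with the smallest F-test p, fixed import genes and called genes of the other lists. Genes that did not pass at 3 days, and those lost or gained under an alternative, were named after their values were seen. Alternatives covered pseudocount, filter, normalization, variance model, weights, replicate block, probe set, fold minimum and arrays left out. No array pair held identical values. Same-numbered arrays of different stages had deviations correlated at -0.42 to 0.30 over 18 pairs, so the numbers were not taken as pairs.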

Additional observations from a re-analysis of the deposited data

How the results depend on the processing

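Of the counts of genes that passed, those of the F test and of 3 days against 65 dpc stayed within 1.5 times the reported count under each alternative run, the latter at 46 to 62 when 1 array was left out. At 60 days against 3 days the count of 3 became 8 with array weights and 0 with the replicate number as a block, with both low arrays left out or with the arrays of these stages alone, and 0 to 4 with 1 array left out. Over all probe sets tested, array weights called 2.96% higher and 2.77% lower at this step. At 120 days against 65 dpc the count of 41 became 18 with hybridization control centring, 17 with a 2-fold minimum and 24 to 48 with 1 array left out. At 120 days against 3 days the count of 6 became 38 with array weights (1 higher, 37 lower), 2 with a 2-fold minimum, 12 with both low arrays left out, 15 with the arrays of these stages alone and 1 to 8 with 1 array left out. Calls over all probe sets tested rose as well, from 2.29% higher and 2.12% lower to 14.9% and 14.6% with array weights. With the arrays of these stages alone they were 4.78% and 4.65%. With the replicate block the counts were 43 for the F test, 56 at 3 days against 65 dpc, 32 at 120 days against 65 dpc and 4 at 120 days against 3 days; it is no pairing by design. The dimmer probe set of MRPL38 turned its change at 120 days against 3 days to 0.047 (adjusted p = 0.877). Of the values of named genes under an alternative, 9235 kept their side of the threshold, 294 lost and 130 gained a call, and 1 call changed sign, which leaves aside sign changes of values that did not pass. The causes of these changes were not tested. Signal over background limits MRPL24, which was too dim to test.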

Other observations

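Another 6 probe sets carried several symbols with a name of this family and were left out of the counts. The set listed only under MRPL22, a large-subunit protein, averaged 497 ± 77.6 at 3 days and 233 ± 85.5 in the fetus (SD, n = 3 arrays each), a log2 change of 1.08 (adjusted p = 0.0113). At 60 and 120 days it averaged 310.2 ± 101 and 369 ± 25.5. Of 5 sets shared by MRPL55 and C2H1orf35, 1 passed at 3 days, with 69.1 ± 3.61 at 3 days and 47.4 ± 8.06 in the fetus (0.40, adjusted p = 0.0148). Their signal cannot be assigned to 1 of these genes.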
